A study of Mus musculus with 5 samples.

Results

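DNaseI hypersensitive sites that were listed in hemogenic endothelium (HE) and in macrophages (MAC), and in none of the 3 other stages analysed here, formed 2394 of 68846 merged regions (3.48%). To find them, every listed site was replaced by 500 bp centred on its middle, and such windows were chained into 1 region, whichever stage they came from, where they shared at least 125 bp. A region belonged to the set if it held a window of HE and a window of MAC and none of mesoderm (MES), hemangioblast (HB) or hematopoietic progenitors (HP). The regions were thus chosen by the same 5 site lists that are described here, so their stage pattern is the rule and not a finding. Of the 2394 regions, 2393 held 2 windows and 1 held 3. The number depended on the lists. With each list cut at its median site width there were 1067 such regions. With every list shortened to its widest sites, as many as HP has, there were 448.

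The study mapped open chromatin with DNaseI-seq, in which the nuclease DNase I cuts accessible DNA, in cultures in which mouse embryonic stem cells of strain 129, marked by GFP under the control of the mesodermal gene Brachyury (Bry), were differentiated to blood. MES cells were Bry:GFP+ and Flk1-, and HB cells were Bry:GFP+ and Flk1+. HE cells were Tie2+, cKit+ and CD41-, and their label also gives Bry:GFP+. HP cells were sorted as CD41+ and MAC cells as CD11b+. Each stage had 1 list of start and end positions with no height, score or read count, and the MAC label names 2 replicates for its single list. With n = 1 per stage no replicate error exists and no test was run, so every share below is a description of these lists, with a 95% Wilson interval that covers counting error only. The files give no depth. In the study's own record of sequencing the HP library had the fewest aligned reads, and HP also had the shortest of the 5 lists, so that a region missing from HP was not shown to be closed there. Undifferentiated ES cells were not analysed here, so that "only" and "all 5 stages" refer to these lists. All populations came from cultured cells, and a marker sort can hold more than 1 cell type.

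Hemogenic endothelium is a transient endothelium that lines early vessels, expresses vascular receptors and gives rise to blood progenitors through a loss of junctions and endothelial identity. Macrophages are phagocytes that arise from such progenitors, migrate through tissue and clear debris through scavenger receptors and lysosomes. From a correlation with gene expression, the study inferred that most sites away from promoters act as enhancers. Several transcription factors bind together at an enhancer. Enhancer activity was not measured for the regions described here. ETS factors such as ERG and FLI1 serve endothelium, PU.1 is an ETS factor of myeloid cells, and AP-1 is the dimer of JUN and FOS proteins that acts in many adherent and stimulated cells.

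The labels were compared with promoter sites, meaning a listed site within 1 kb of a protein-coding transcription start site (TSS). T, which is Brachyury, had promoter sites in MES and HB only. Tek, the gene of Tie2, had one in HE only. Itga2b, the gene of CD41, had them in HE and HP, and Itgam, the gene of CD11b, had one in MAC only. Kit had promoter sites in every stage but MAC, and Kdr, which encodes Flk1, in all 5. The Itga2b site in HE stands beside the CD41- sort of that population. Of 38 endothelial genes, 36 had a promoter site in HE and 10 in MAC, with 12 in MES, 21 in HB and 16 in HP. Of 40 macrophage genes, 32 had one in MAC and 13 in HE, with 11 in MES, 13 in HB and 9 in HP. Among 22 marker genes of other cells that the sorts could hold (cardiac, smooth muscle, erythroid and megakaryocyte), 15 had a promoter site in HE and 4 in MAC, with 7 in MES, 8 in HB and 10 in HP. Over all protein-coding genes the shares with a promoter site were 60.3% in HE, 48.6% in MAC, 56.0% in MES, 57.6% in HB and 49.0% in HP. The part of other cells in the results was not tested.

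To show what these regions look like, the central 240 bp of 8 members are printed, on the + strand of build GRCm38.p6 with sequence from RefSeq. For each of 8 gene lists this was the member over 2 kb from a TSS, free of exons, with the largest value of the smaller of its HE and MAC site widths (ties by the larger width, then by symbol and position). Capitals mark exact matches on either strand to the consensus strings of AP-1 (TGAGTCA), ETS (CAGGAAGT or CCGGAAGT), PU.1 (GAGGAAGT), ETS and FOX together (AACAGGAA), RUNX (TGTGGTT or TGTGGTC), the GATA family of factors (which read AGATAA), the SOX family of factors (which read CATTGTT), TEAD (ACATTCCA, ACATTCCT, GCATTCCA or GCATTCCT), C/EBP (TTGCGCAA or TTGCACAA), IRF (GAANTGAAA, where N is any base) and MAF (TGCTGAC). The ETS and PU.1 strings differ in their first bases and cannot match at the same place of a strand, whereas an ETS match can share bases with an ETS and FOX match, and an AP-1 match with a MAF match. A match describes letters and is not a bound site.
Nrp2, chr1:62720558-62720797: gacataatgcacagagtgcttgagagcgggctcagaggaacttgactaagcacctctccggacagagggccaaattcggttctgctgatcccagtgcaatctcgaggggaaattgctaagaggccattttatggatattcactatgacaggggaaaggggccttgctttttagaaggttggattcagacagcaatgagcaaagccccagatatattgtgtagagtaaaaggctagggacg
Gfi1, chr5:107749666-107749905: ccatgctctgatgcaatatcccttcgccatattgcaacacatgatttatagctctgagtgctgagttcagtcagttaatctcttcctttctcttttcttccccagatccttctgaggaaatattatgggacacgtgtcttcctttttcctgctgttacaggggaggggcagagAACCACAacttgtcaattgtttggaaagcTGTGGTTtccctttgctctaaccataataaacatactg
Pparg, chr6:115480409-115480648: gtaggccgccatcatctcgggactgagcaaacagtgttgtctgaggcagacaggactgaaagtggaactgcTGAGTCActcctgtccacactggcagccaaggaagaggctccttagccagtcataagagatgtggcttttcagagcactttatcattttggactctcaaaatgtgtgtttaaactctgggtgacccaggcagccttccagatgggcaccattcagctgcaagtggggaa
Msn, chrX:96130357-96130596: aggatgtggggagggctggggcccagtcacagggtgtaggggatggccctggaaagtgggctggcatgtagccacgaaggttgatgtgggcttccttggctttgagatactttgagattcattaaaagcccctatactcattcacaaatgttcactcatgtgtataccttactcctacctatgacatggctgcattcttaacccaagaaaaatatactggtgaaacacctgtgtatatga
Bach2, chr4:32358762-32359001: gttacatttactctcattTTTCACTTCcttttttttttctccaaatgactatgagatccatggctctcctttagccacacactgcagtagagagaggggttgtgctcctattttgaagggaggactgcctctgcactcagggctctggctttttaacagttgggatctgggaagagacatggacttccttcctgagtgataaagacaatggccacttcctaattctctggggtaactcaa
Ski, chr4:155200937-155201176: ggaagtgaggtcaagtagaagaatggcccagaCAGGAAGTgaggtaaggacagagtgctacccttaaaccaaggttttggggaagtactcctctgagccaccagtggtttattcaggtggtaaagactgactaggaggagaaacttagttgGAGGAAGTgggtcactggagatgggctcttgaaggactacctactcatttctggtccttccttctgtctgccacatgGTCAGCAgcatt
Hexa, chr9:59544731-59544970: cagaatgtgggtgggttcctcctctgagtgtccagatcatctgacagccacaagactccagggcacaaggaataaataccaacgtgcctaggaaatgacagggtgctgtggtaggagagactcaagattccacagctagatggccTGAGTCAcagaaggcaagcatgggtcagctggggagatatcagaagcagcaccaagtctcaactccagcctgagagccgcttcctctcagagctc
Hand1, chr11:57895444-57895683: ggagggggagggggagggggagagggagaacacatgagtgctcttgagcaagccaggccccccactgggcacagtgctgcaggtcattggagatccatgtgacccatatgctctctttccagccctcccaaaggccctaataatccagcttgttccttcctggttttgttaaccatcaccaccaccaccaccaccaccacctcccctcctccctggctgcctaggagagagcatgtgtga

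The Ski sequence held an ETS match at base 33, a PU.1 match at base 152 and a MAF match at base 229. Pparg held 1 AP-1 match at base 72 and Hexa 1 at base 146, Gfi1 held RUNX matches at bases 174 and 203, and Bach2 held an IRF match at base 19. The Nrp2, Msn and Hand1 sequences held none of these strings. In their central 500 bp the Nrp2 member held an AP-1 match, the Msn member a GATA match and the Hand1 member a PU.1 match. The HE and MAC windows of the Nrp2 member shared 126 bp, the smallest overlap among members, so it is an example from the edge of the rule. A second set was chosen after the values were seen, to show AP-1 and ETS-type matches side by side. Of 87 members at listed genes that could be printed, 3 held an AP-1 match together with an ETS, PU.1 or ETS and FOX match in the central 240 bp.
Smurf2, chr11:106957569-106957808: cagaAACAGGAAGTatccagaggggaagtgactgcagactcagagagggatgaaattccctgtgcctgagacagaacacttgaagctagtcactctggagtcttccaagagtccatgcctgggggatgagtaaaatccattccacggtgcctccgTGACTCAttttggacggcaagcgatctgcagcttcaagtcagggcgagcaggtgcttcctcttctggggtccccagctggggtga
Jun, chr4:95084087-95084326: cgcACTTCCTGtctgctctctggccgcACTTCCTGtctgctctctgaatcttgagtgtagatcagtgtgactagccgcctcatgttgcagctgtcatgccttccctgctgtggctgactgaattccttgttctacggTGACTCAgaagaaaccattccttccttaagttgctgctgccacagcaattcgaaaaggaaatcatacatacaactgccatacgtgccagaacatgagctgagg
Il1r1, chr1:40172033-40172272: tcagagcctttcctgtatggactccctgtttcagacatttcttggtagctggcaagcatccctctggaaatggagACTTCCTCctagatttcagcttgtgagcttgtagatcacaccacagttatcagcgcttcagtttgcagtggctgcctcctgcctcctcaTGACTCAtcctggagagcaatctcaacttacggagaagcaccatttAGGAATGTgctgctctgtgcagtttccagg

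In Smurf2, which encodes a ubiquitin ligase of the TGF-beta pathway, an ETS and FOX match at base 5 shared bases with an ETS match at base 7, and an AP-1 match stood at base 156. Jun, an AP-1 subunit, had ETS matches at bases 4 and 28 and an AP-1 match at base 138. Il1r1, the receptor for interleukin 1, had a PU.1 match at base 76, an AP-1 match at base 165 and a TEAD match at base 211.

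The HE site of a member was usually the wider of the pair. Its median width was 1000 bp (quartiles 800 and 1200, range 300 to 3500), and that of the MAC site was 600 bp (quartiles 400 and 800, range 100 to 1800). The HE site was wider in 1967 members (82.2%), both were equally wide in 146 (6.1%) and the MAC site was wider in 281 (11.7%). In 1598 members (66.8%) the MAC interval lay wholly within the HE interval. Since the median of the whole HE list was 1200 bp and that of the MAC list 600 bp, the HE sites of members were narrow for their list and the MAC sites were not. An HE site at or above its list's median was found in 751 members (31.4%), and a MAC site at or above its list's median in 1240 (51.8%). Regions open in HE alone had a median HE width of 900 bp and regions open in MAC alone a median MAC width of 500 bp. Where HP was listed as well (1044 regions), the medians were 1300 bp in HE and 700 bp in MAC. The members thus lay between the regions of a single stage and those that also held HP in both widths.

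**Figure D1:**
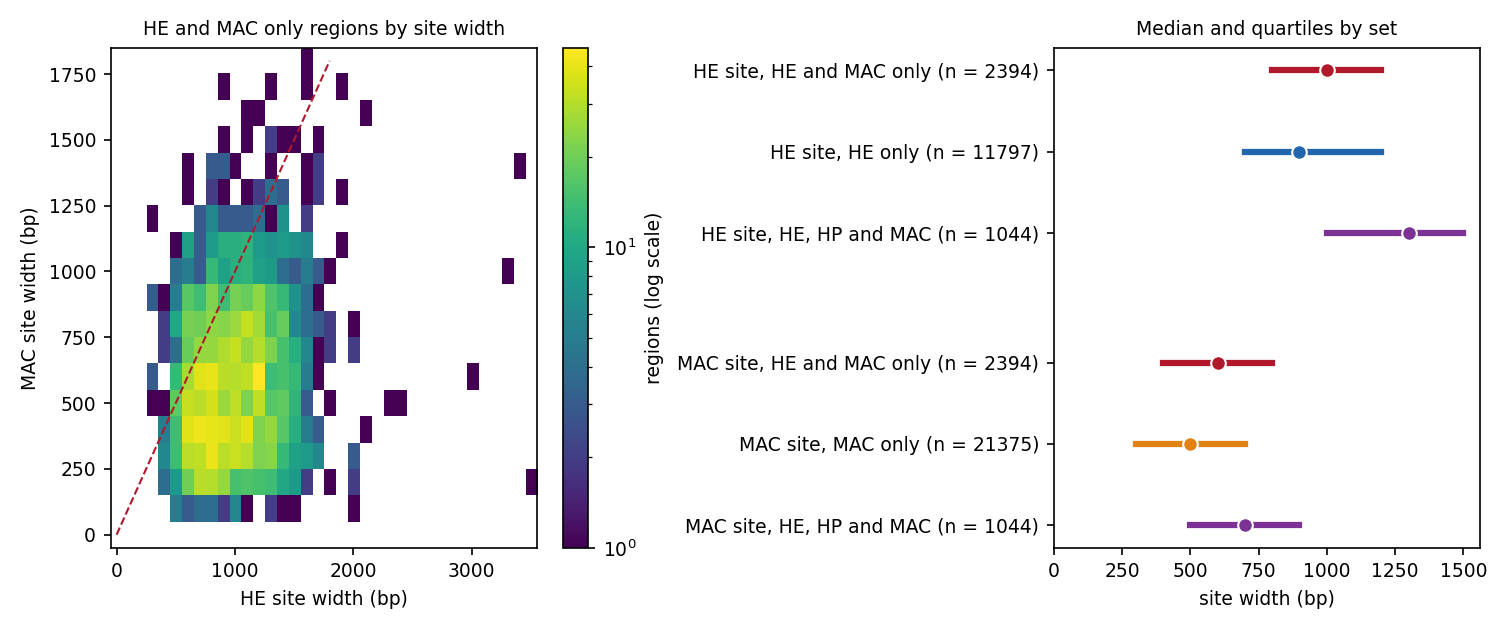
Left, number of HE and MAC only regions (colour, log scale) by the width of their HE site (horizontal, bp) and MAC site (vertical, bp), with a dashed line of equal width; most of the 2394 regions lie below it. Right, median (point) and quartiles (bar) of the site width in bp by set; the HE and MAC only regions have medians of 1000 bp in HE and 600 bp in MAC.

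The middles of the HE and MAC sites of a member were 98 bp apart in the median (quartiles 45 and 171, maximum 374), and in regions of HE, HP and MAC the HE and MAC middles were 95 bp apart. In 1248 members (52.1%) they lay within 100 bp. The smallest overlap of windows among members was 126 bp, at Nrp2 (chr1:62720241-62721114), Inpp5d (chr1:87620341-87621214) and Sde2 (chr1:180848291-180849164). Just inside the rule, at an overlap of 125 to 149 bp, were 41 members. Just outside it, at 100 to 124 bp, were 54 pairs of neighbouring HE only and MAC only regions, which were not members.

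A deposited interval of MES overlapped 31 members, one of HB 54 and one of HP 34, together 72 members (3.01%). Intervals can reach past the window of 500 bp, and windows that overlap by less than the rule requires stay separate. The part of each in this number was not tested. An HP site lay within 5 kb of 15.9% of members, within 10 kb of 30.3% (28.5 to 32.2) and within 50 kb of 72.9%. The share within 10 kb was 64.4% when each list was cut at its median width. It was 51.4% without the HP list, a set that takes in regions with an HP site. The nearest HP site was 21.4 kb from the centre of a member in the median, against 26.9 kb for HE only regions and 26.2 kb for MAC only regions. Within 10 kb the shares were 29.2% for HE only and 27.4% for MAC only regions, and the interval of the members overlapped the first of these values and not the second. Within 5 kb they were 17.8% and 15.6%, and within 50 kb 64.8% and 67%. The order thus depended on the reach. Members were below HE only regions at 5 kb, with overlapping intervals, and above both sets at 50 kb. A MES site lay within 10 kb of 29.2% of members, 33.1% of HE only and 28.2% of MAC only regions, and an HB site within 10 kb of 34.0%, 37.3% and 31.7%. At this reach the members were between those sets, with intervals that overlapped those of MAC only regions. Within 5 kb they were below both in value, at 15.7% against 21.5% and 16.4% for MES and 18% against 24.8% and 18.8% for HB. Within 50 kb they were above both, at 73.5% against 68.8% and 68.5% for MES and 77.4% against 74% and 73% for HB. Another member lay within 10 kb of 197 members (8.23%) and within 50 kb of 638 (26.6%). In the larger sets, 21.8% of HE only regions and 42% of MAC only regions had another of their own set within 10 kb, and 60.4% and 82% within 50 kb; these shares grow with the number of regions in a set.

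Most members lay away from promoters. Within 2 kb of a protein-coding TSS were 207 members (8.65%, 7.59 to 9.84), against 24.0% of all merged regions, 16.2% of HE only and 6.51% of MAC only regions. The value of the members lay below the first pair and above the MAC only regions, and the intervals did not overlap. Regions of HE, HP and MAC had a promoter share of 9.58% (7.94 to 11.5), which overlapped that of the members. The promoter share of members was 22.9% when each list was cut at its median width, 14.3% with lists of equal length and 16.9% with the TSS of all annotated transcripts. A further 828 members (34.6%) were within 20 kb and 1359 (56.8%) beyond, and the median distance was 25.1 kb. By the annotation of the centre, 1298 members (54.2%) were in introns, 851 (35.5%) between genes and 245 (10.2%) in exons. CpG-rich sequence, with a GC share of at least 0.5 and an observed to expected CpG ratio of at least 0.6, was found in 54 members (2.26%, 1.73 to 2.93), against 18.2% of all regions, 8.47% of HE only, 0.884% of MAC only and 2.59% (1.78 to 3.74, overlapping the members) of HE, HP and MAC regions. The member share was 12.8% with lists cut at median width, 6.03% with lists of equal length and 4.06% with windows of 300 bp. The median GC content over 2 kb from a TSS was 48.6% in members and in all regions, 48.4% in HE only, 46.4% in MAC only and 49.6% in HE, HP and MAC regions. Across the chromosomes other than Y the share of regions that were members ran from 2.64% on chromosome 17 to 3.92% on chromosome 1. None of the 13 regions of Y was a member.

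The 207 promoter members belonged to 204 genes. In 92 of these genes all promoter sites within 1 kb were of HE and MAC, in 94 the promoter also had a site of MES, HB or HP, 8 had no site that near and the others had sites of HE or MAC alone. The genes were chosen by their member, which within 1 kb is itself the promoter site counted, so the 92 largely follows from the rule. Over all protein-coding genes, 0.719% had promoter sites in HE and MAC only. Of the listed genes 5 had a promoter member. The region of Tfec, a transcription factor of the MITF family in macrophages, lay 0.063 kb upstream of the TSS (chr6:16898209-16898799), with an HE site of 700 bp and a MAC site of 600 bp, and the gene had no promoter site in MES, HB or HP. The Nrp1 region lay 0.548 kb upstream (chr8:128358274-128358775), with an HE site of 3000 bp and a MAC site of 600 bp, and a deposited HP interval covered its centre. Nrp1, a co-receptor of VEGF, had promoter sites in every stage but MES. Mef2c, a transcription factor of vessels and muscle, had its member 1.39 kb upstream, and its promoter had sites in HB, HE and MAC. Bach1, a repressor of heme and oxidant response genes, had promoter sites in all 5 stages, and its member lay 0.984 kb downstream, where a deposited HP interval covered the centre. Ski, a repressor of TGF-beta signalling, also had promoter sites in all 5 stages, and its member lay 1.55 kb downstream (2000 bp in HE, 100 bp in MAC).

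The AP-1 string stood apart from its share in all regions by more percentage points than any other string. Over 2 kb from a TSS, 36.6% of 2187 members held TGAGTCA in their central 500 bp (34.6 to 38.6), against 21.5% of all 52345 such regions. HE only regions held it in 19.4% and MAC only regions in 27.1%, so the members stood above both with intervals that did not overlap. Regions of HE, HP and MAC held it in 43.8%, and the interval of the members lay below theirs, so a high AP-1 share was not limited to regions that HP lacked. The reversed string, which keeps the letters and loses the motif, was found in 10.6% of members. A pair of AP-1 matches or more stood in 152 members (6.95%), against 2.96% of all regions, 2.11% of HE only, 3.84% of MAC only and 11.8% of HE, HP and MAC regions.

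Of the 3 ETS-type strings, ETS and the ETS and FOX string were above both single-stage sets and PU.1 was above HE only regions. The ETS string was in 20.5% of members (18.8 to 22.2), against 10.9% of all regions, 14.8% of HE only and 10.4% of MAC only regions, and its reversed form in 4.21%. Regions of HE, HP and MAC held it in 17.1% (14.8 to 19.6), an interval that overlapped that of the members. The ETS and FOX string, which is known from endothelial enhancers, was in 17.3% of members (15.8 to 19), against 9.35% of all regions, 11.9% of HE only and 10.4% of MAC only regions, and the intervals of members and of HE, HP and MAC regions (13.5%, 11.4 to 15.8) met at their ends. PU.1 was in 15.0% of members (13.5 to 16.5), against 9.47% of all regions. Here the members differed from HE only regions (6.62%), and their interval overlapped those of MAC only regions (14.6%) and of HE, HP and MAC regions (14.9%). At least 1 of these 3 strings was in 919 members (42.0%, 40 to 44.1), against 28.8% of HE only, 30.5% of MAC only, 38.6% of HE, HP and MAC and 25.7% of all regions. AP-1 together with an ETS-type string was in 302 members (13.8%, 12.4 to 15.3), against 5.35% of all, 5.34% of HE only, 6.88% of MAC only and 14.2% of HE, HP and MAC regions. In 96 members (4.39%) the ETS and the ETS and FOX match fell at 1 place, against 1.61% of all, 1.71% of HE only, 2.02% of MAC only and 2.65% (1.8 to 3.88) of HE, HP and MAC regions. In 770 members (35.2%) none of the 4 strings was found, against 58.2% of all, 57.1% of HE only, 49.3% of MAC only and 31.9% (29 to 34.9) of HE, HP and MAC regions, and the last interval overlapped that of the members (33.2 to 37.2).

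For 5 strings, GATA, SOX, TEAD, C/EBP and IRF, the members lay between the HE only and MAC only values. GATA, the string of GATA1 and GATA2, was in 25.2% of members, against 27.3% of all regions, 34.5% of HE only and 21.0% of MAC only regions. SOX, the string of the endothelial SOX7, SOX17 and SOX18, was in 9.83%, against 8.39% of all, 14.0% of HE only and 7.73% of MAC only regions. TEAD, the string of the partners of YAP, was in 9.65%, against 12.5% of all, 15.9% of HE only and 7.47% of MAC only regions. For these 3 the interval of the members was below HE only and above MAC only regions. C/EBP, of myeloid cells, was in 2.38% of members, against 2.62% of all, 1.31% of HE only and 4.37% of MAC only regions, and IRF, of interferon and myeloid genes, in 5.90%, against 5.26% of all, 3.19% of HE only and 8.55% of MAC only regions. For both the interval was above HE only and below MAC only regions. RUNX was in 24.6% of members, against 22.5% of all and 19.6% of HE only regions, and MAF in 13.6%, against 12.1% of all and 10.6% of HE only regions; both intervals overlapped those of MAC only regions (25.5% and 14.2%). RUNX was higher in sets that also held HP than in the members (interval below both), at 31.2% (28.4 to 34.3) of HE, HP and MAC and 38.9% (33.9 to 44) of HP and MAC regions, and GATA was in 32.7% (29.8 to 35.8) of HE, HP and MAC regions. The string of the insulator factor CTCF (AGGGGGCG, AGGTGGCG or AGATGGCG) was in 4.44% of members, above HE only (2.76%) and MAC only regions (2.20%), and overlapped the 5.32% of all regions. Of the other motifs, MEF2 (CTAAAAATA or CTATTTATA) was in 2.93% of members and 2.03% of all regions, with an interval above HE only regions, and the E-box CAGCTG in 34.9% and 32.3% and STAT (TTCCNGGAA) in 3.02% and 2.37%, with intervals above MAC only regions. For 9 motifs the intervals overlapped those of both single-stage sets. Of these the TAL1 E-box CAGATG was in 37.8% of members and 37.3% of all regions, and the RBPJ string of Notch signalling (GTGGGAA) in 12.1% and 12.6%. The strings of FOX (TGTTTAC, 8.5%), KLF (GGGTGTGG, 4.39%), MITF and TFE (TCACGTG, 3.38%), the octamer (ATGCAAAT, 1.83%), T-box (AGGTGTGA, 1.78%), NF-kB (GGAATTTCC or GGACTTTCC, 1.65%) and the CArG box (2.7%) were the rest, found in 7.53%, 4.92%, 3.7%, 2.68%, 2.54%, 1.48% and 2.69% of all regions. Over 24 motifs, the members were above both single-stage sets in 4 (AP-1, ETS, ETS and FOX, CTCF) and below both in 0.

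**Figure D2:**
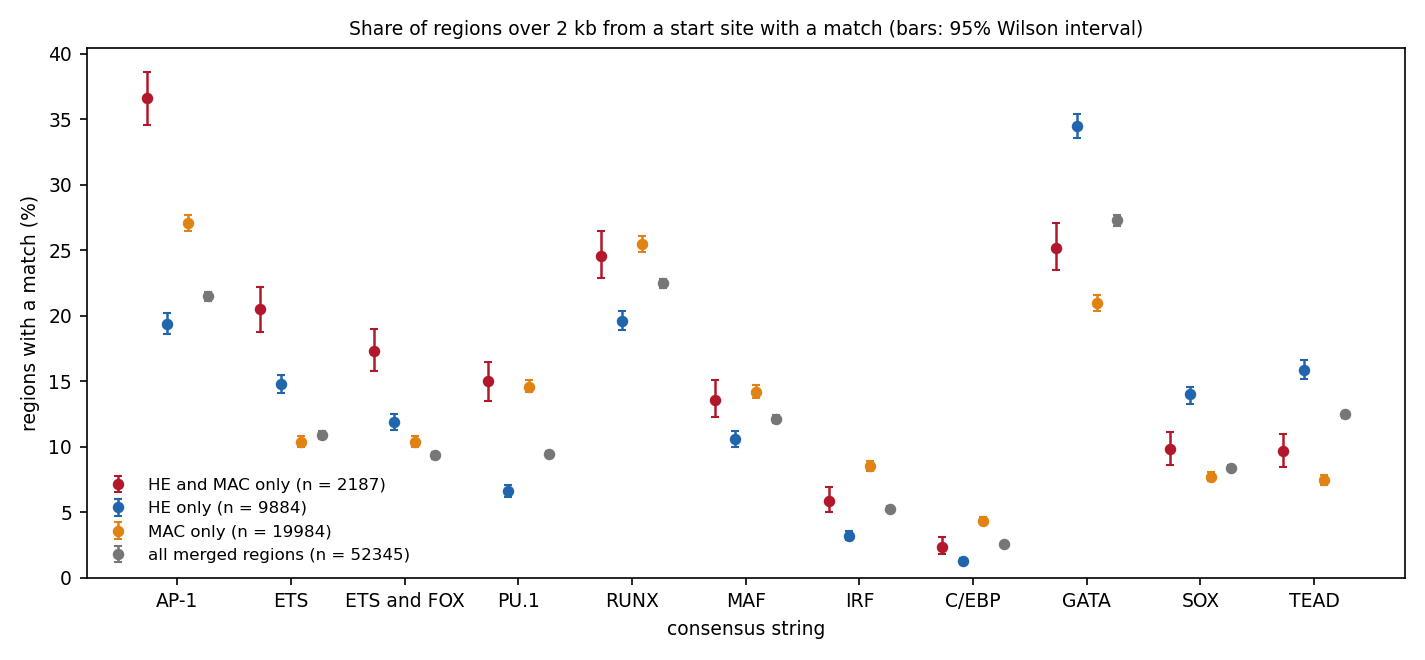
Share of regions over 2 kb from a start site with a match to each consensus string (vertical, %), for the HE and MAC only regions (red), HE only (blue), MAC only (orange) and all merged regions (grey), with bars for 95% Wilson intervals. The red points stand above all others for AP-1 (36.6%), ETS (20.5%) and ETS and FOX (17.3%), and between blue and orange for GATA, SOX, TEAD, C/EBP and IRF.

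The matches were gathered at the middle of the regions. AP-1 had 1.33 matches per kb in the first 100 bp from the centre of a member, 0.722 in the next and 0.167 at 900 to 1000 bp, while the reversed string had 0.27 in the first 100 bp. In the first and last of these bins ETS had 0.711 and 0.0983 matches per kb, ETS and FOX 0.549 and 0.0846, and PU.1 0.471 and 0.0572. RUNX had 0.61 matches per kb at the centre and 0.446 at the edge, and GATA 0.553 and 0.617. GATA matches of members thus showed no peak at the centre. In the central 200 bp alone, AP-1 was in 22.8% of members, 10.2% of HE only, 18.3% of MAC only and 30.6% of HE, HP and MAC regions, which is the order seen in 500 bp.

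**Figure D3:**
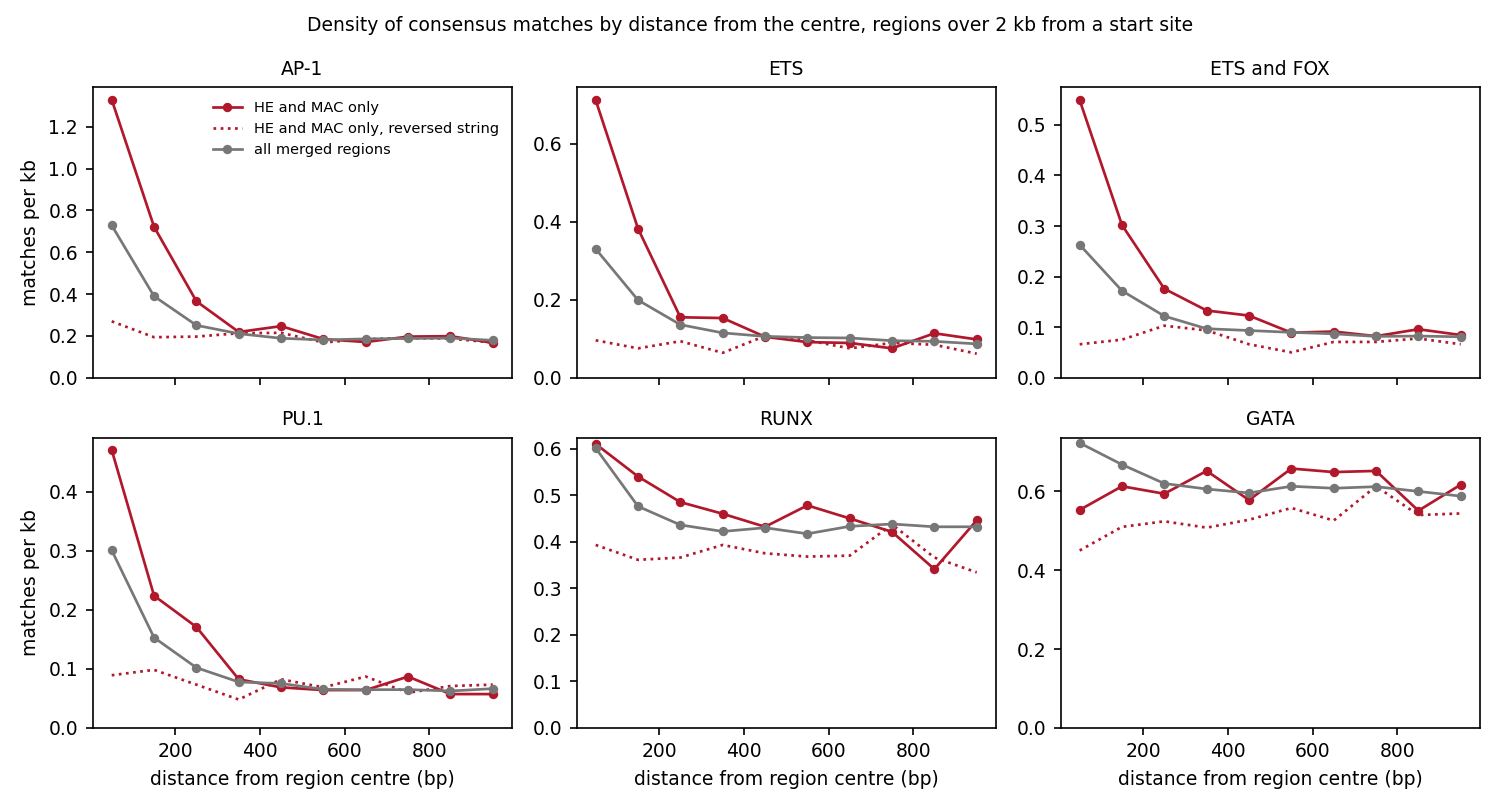
Matches per kb (vertical) by distance from the region centre in bins of 100 bp (horizontal) for 6 strings, in the HE and MAC only regions (red), their reversed strings (dotted) and all merged regions (grey), over 2 kb from a start site. AP-1, ETS, ETS and FOX and PU.1 peak at the centre of the red regions (AP-1 at 1.33 per kb), and GATA does not.

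Members differed among themselves with the width of each site. Of the 653 members with an HE site of at least 1200 bp, 30.2% held GATA (26.8 to 33.8), against 20.2% (17.1 to 23.7) of the 565 with an HE site of at most 700 bp. SOX was in 13.3% of the wide (10.9 to 16.1) and 7.61% of the narrow (5.7 to 10.1), and ETS in 23.7% (20.6 to 27.1) and 17.0% (14.1 to 20.3). AP-1 was in 33.7% of the wide and 34.5% of the narrow, with intervals that overlapped. By the width of the MAC site, PU.1 was in 18.8% (15.9 to 22.1) of the 622 members with at least 800 bp and in 12.6% (10.4 to 15.1) of the 788 with at most 400 bp. GATA was in 22.8% of the wide (19.7 to 26.3) and 27.8% of the narrow (24.8 to 31) and SOX in 8.52% (6.57 to 11) and 11.8% (9.73 to 14.2), with overlapping intervals for both, as also for AP-1, ETS, ETS and FOX, and RUNX. AP-1 was more frequent in members beyond 20 kb from a TSS (40.0%, 37.4 to 42.6) than in those at 2 to 20 kb (31.0%, 28 to 34.3), as was GATA (27.5%, 25.2 to 30, and 21.5%, 18.8 to 24.4).

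Each member was assigned to the nearest protein-coding TSS up to 100 kb away. This gave 2043 members at 1741 genes (8.29% of the 21000 protein-coding genes), and 351 had no TSS so near. Of the genes 1486 had 1 member, 216 had 2, 31 had 3 and 8 had 4. Members were 3.42% of all regions assigned to a gene, and this is the value to read the lists against, because genes with many regions have more chances to hold a member. This value takes in promoter regions, which were 24.0% of all merged regions and 8.65% of members. No value without promoters was computed for the lists, and the part of promoters in their distance from 3.42% was not tested. The regions of 1 gene are not independent, and the lists were chosen with results of these data known, so that counts and intervals describe them.

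Of the 38 endothelial genes, 17 had a member, and 27 of the 318 regions assigned to the list were members (8.49%, 5.9 to 12.1). HE only regions made up 29.2% of the list's regions, against 16.1% of all regions assigned to a gene, and MAC only regions 24.5%, against 30.0%. Kdr, the main VEGF receptor of endothelium, had 4 members among 24 regions, the most of any listed gene together with Bach2. They lay 8.04 kb downstream of the TSS in an intron (chr5:75970146-75970675; HE site 1200 bp, MAC site 300 bp, ETS and FOX match), 12 kb upstream (chr5:75990176-75990745; 800 and 900 bp, AP-1, ETS and FOX, TEAD and MAF matches), 29.3 kb upstream (chr5:76007476-76008095; 600 and 400 bp, IRF match) and 35.7 kb upstream (chr5:76013796-76014425; 1500 and 400 bp, ETS and MAF matches). Of the other Kdr regions, 11 were HE only and 4 MAC only, and the region at the TSS was listed in all 5 stages. Ets1, an ETS factor, had 3 members among 28 regions, 13.9, 20.1 and 53.8 kb downstream of its nearest TSS. The last of these held AP-1, ETS and RUNX matches (chr9:32749551-32750200; 1000 and 300 bp). S1pr1, the receptor of sphingosine 1-phosphate, had 3 members among 22 regions, at 74.1 kb upstream and at 35.7 and 53.8 kb downstream, and its promoter was listed in every stage but MAC. Its locus also held 10 MAC only regions. Notch1, Nrp2 and Tjp1, which encodes a tight junction protein, had 2 members each. Another 11 genes had 1, among them Pecam1, an adhesion molecule of endothelium and leukocytes, Flt1, which encodes a second VEGF receptor, Cldn5, a tight junction protein, and Emcn, an endothelial sialomucin whose single region was a member. Tek, Cdh5 and the other 19 genes of the list without a member were also measured.

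**Figure D4:**
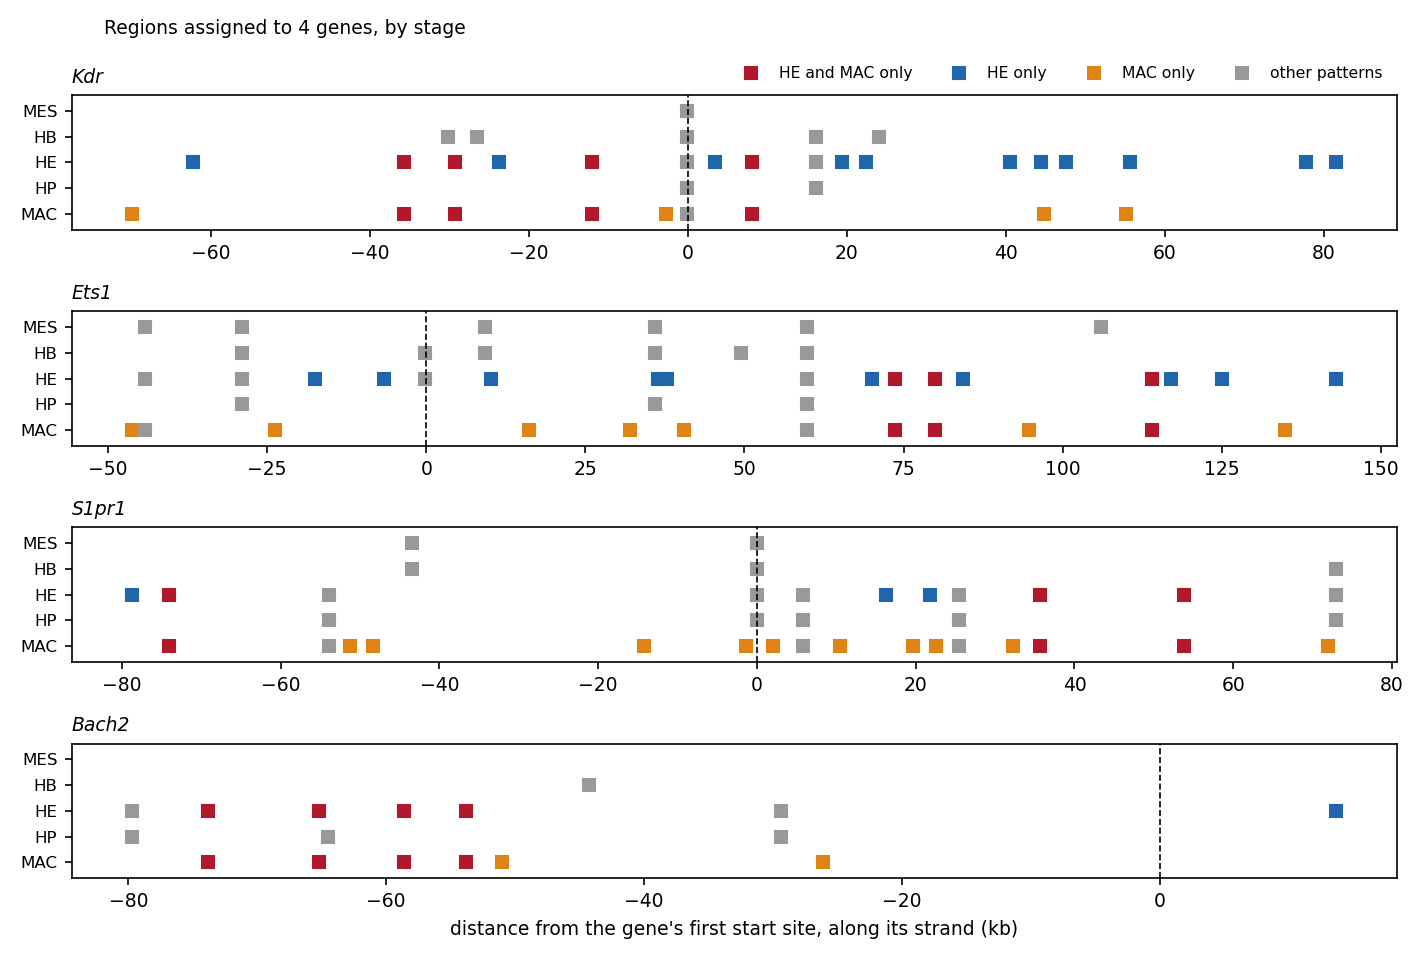
Regions assigned to Kdr, Ets1, S1pr1 and Bach2 by distance from the gene's first start site along its strand (horizontal, kb), with a square in the row of each stage in which the region was listed; red marks HE and MAC only, blue HE only, orange MAC only and grey all other patterns. Kdr and Bach2 show 4 red regions each, and Ets1 and S1pr1 show 3.

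Of the 27 blood transcription factor genes, 6 had a member, and 6 of 274 regions were members (2.19%, 1.01 to 4.69), an interval that holds the 3.42% of all genes. They were Gfi1, Runx2, Meis1, Lmo2, Lyl1 and Etv6. Gfi1, a repressor that helps to end the endothelial program, had its member 24 kb upstream (chr5:107749496-107750075; 1400 and 800 bp), with the RUNX matches shown above. Lmo2, a bridging factor of the TAL1 complex, had one 51.4 kb upstream with an ETS and FOX match (chr2:103906220-103907024). Neither Runx1 nor Spi1, which encodes PU.1, had a member.

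The macrophage genes were near the background. Of 40 genes 8 had a member, and 9 of 251 regions were members (3.59%, 1.9 to 6.67), while 64.9% of the list's regions were MAC only, against 30.0% of all regions assigned to a gene. Pparg, a nuclear receptor of lipid metabolism, had 2 members among 13 regions, 41 and 58.5 kb downstream, both with an AP-1 match, and 8 of its regions were MAC only. Mertk, a receptor for apoptotic cells, had a member 44.7 kb downstream with AP-1 and TEAD matches (chr2:128743275-128743969; 700 and 400 bp). Cx3cr1, the fractalkine receptor, had one 5.08 kb upstream (chr9:120073101-120073650), whose MAC site was 100 bp wide. Irf8, Maf, Abca1, Ctss and Fcgr2b had 1 member each.

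The next 4 lists hold genes that adherent or phagocytic cells of many kinds use. Among adhesion and actin cytoskeleton genes, 18 of 37 had a member, and 21 of 355 regions were members (5.92%, 3.9 to 8.87). Msn, which links the membrane to actin, had 2 members among 5 regions, and the integrin genes Itga5 and Itga6 had 2 each. Of the Itga6 pair, the one 27.2 kb downstream held ETS, PU.1 and ETS and FOX matches (chr2:71813820-71814474; 800 and 600 bp). Vcl, which encodes vinculin, had a member 56.3 kb downstream with AP-1, ETS and ETS and FOX matches (chr14:20985408-20985928; 600 and 700 bp). That was its single member, and 14 other genes of the list, among them Itgb1, Itgb3, Itgav, Cd44, Cd9, Lpp, Actn1, Actn4 and Anxa1, had 1 each. 

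Of 16 genes of AP-1 and related bZIP factors, 7 had a member, and 11 of 139 regions were members (7.91%, 4.48 to 13.6). Bach2, a repressor that competes with AP-1 in lymphoid cells, had 4 members among 11 regions. They lay 73.8, 65.2, 58.6 and 53.8 kb upstream of the only curated TSS used for this gene. By annotation all 4 were in introns, so they can lie downstream of other starts of the gene. No stage had a listed site within 1 kb of the TSS used, and other starts of Bach2 were not examined. At 65.2 kb the HE site was 2000 bp wide, and a deposited HP interval came within 0.433 kb of the centre. The one at 58.6 kb (chr4:32358608-32359156) had an HE site of 1300 bp and a MAC site of 1000 bp. Bach1 had 2 members, and Jun, Mafg, Batf, Batf3 and Jdp2 had 1 each. The member of Jun lay 32 kb upstream with AP-1 and ETS matches (chr4:95083957-95084457; 800 and 600 bp).

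In the list of TGF-beta, NF-kB and cytokine signalling, 10 of 28 genes had a member, and 15 of 258 regions were members (5.81%, 3.55 to 9.37). Ski had 3, among them one 21.5 kb downstream (chr4:155200757-155201357; 1400 and 800 bp) whose ETS and PU.1 matches are shown above. Nfkbia, which encodes the inhibitor of NF-kB, had 2, at 18.7 and 45.4 kb downstream, and Il1r1 had 2 upstream, 52.9 and 50.9 kb from the TSS and both with AP-1 matches. Smad7, an inhibitor of TGF-beta signalling, had 2, and Smad3, Smurf2, Nfkb1, Tnfaip3, Csf1 and Il10rb had 1 each. Csf1 encodes the growth factor of macrophages, and its member lay 12.6 kb upstream with AP-1 and SOX matches (chr3:107772678-107773365; 800 and 800 bp).

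Of 30 genes of endocytosis, scavenging and lysosome, 12 had a member, and 15 of 209 regions were members (7.18%, 4.4 to 11.5). Stab1, a scavenger receptor of both sinusoidal endothelium and macrophages, had 2 members among 5 regions, 4.33 and 14.5 kb upstream, and the nearer held AP-1 and ETS matches (chr14:31172629-31173307; 1200 and 300 bp). Dab2, an adaptor of clathrin coats, had 2 among 12 regions, of which 9 were MAC only, and Ctsd, the lysosomal protease cathepsin D, had 2 among 6. Hexa, a lysosomal hexosaminidase, had a member 5.31 kb downstream (chr9:59544601-59545100; 1300 and 1100 bp). Lyve1, a hyaluronan receptor of lymphatic endothelium and some macrophages, had one 2.73 kb downstream. Lamp2, Scarb2, Lrp1, Npc1, Npc2, Colec12 and Tfec had 1 each. Among the 22 marker genes of other cells, 1 had a member, Hand1 of cardiac mesoderm, and 1 of 85 regions was a member (1.18%, 0.208 to 6.37). An AP-1 match was in 35.4% of members at any distance from a TSS. By list it was in 5 of 27 endothelial, 1 of 6 blood transcription factor, 5 of 9 macrophage, 10 of 21 adhesion and actin, 3 of 11 bZIP, 9 of 15 signalling, 4 of 15 endocytosis and lysosome members and in 0 of 1 other-cell member. For the share of regions that were members, the intervals of 5 lists lay above 3.42%, and those of the macrophage, blood transcription factor and other-cell lists held it.

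**Figure D5:**
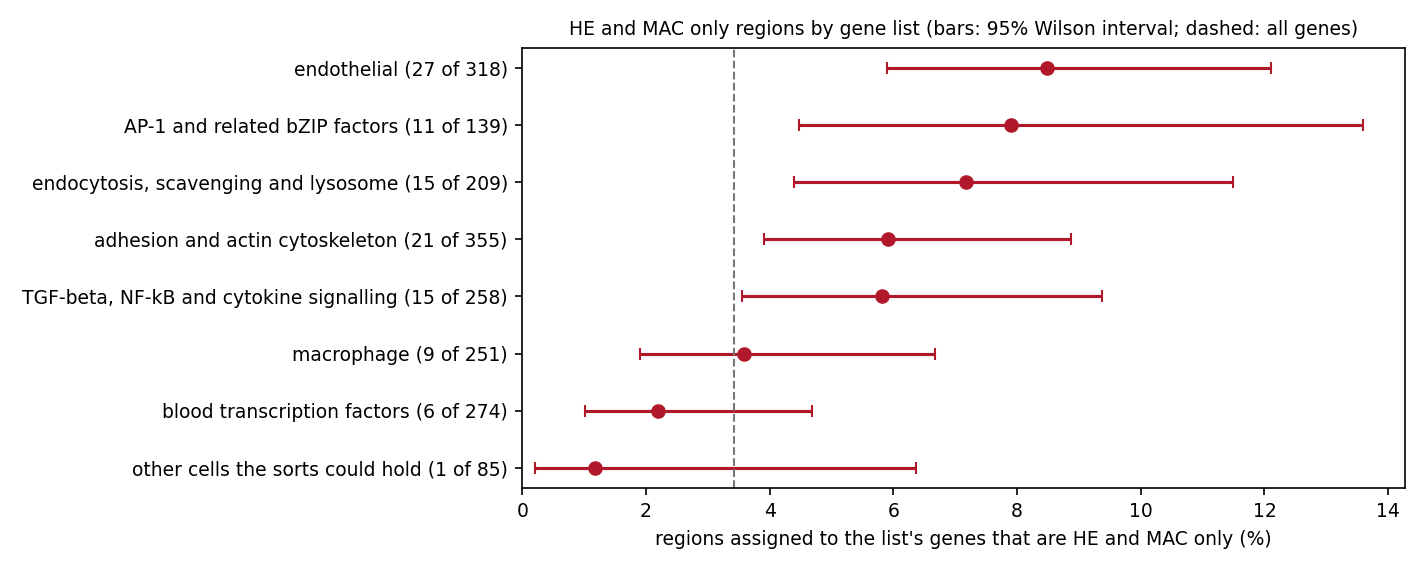
Share of the regions assigned to each list's genes that were HE and MAC only (horizontal, %), with 95% Wilson intervals and the counts in brackets; the dashed line is the 3.42% of all assigned regions. The endothelial list is highest (8.49%), and the macrophage list (3.59%) is at the line.

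The other genes with 4 members were Mef2a, Nav1, Palld, Rbms1, Tmcc3 and Zmiz1, and Abr, Abtb2, B3gnt2 and Bmp2k followed with 3. Mef2a, a transcription factor of the same family as Mef2c, had 4 members among 16 regions. One of them, 78.8 kb upstream (chr7:67451360-67451876), held AP-1, ETS, RUNX, GATA and SOX matches in 500 bp. Another Mef2a member, 0.785 kb upstream (chr7:67373260-67374026), had an HE site of 2100 bp and a MAC site of 1600 bp. It shared bases with an HP only region and with a region of MES, HB and HP, by less than the overlap rule requires. A deposited HP interval came within 0.167 kb of its centre. Palld, which encodes the actin-bundling protein palladin, had 4 among 30. Zmiz1, a co-activator, had 4 among 26, of which 10 were MAC only and 1 HE only. Nav1 had 4 among 17 regions, and 3 of its members held an ETS match. By the smaller of the 2 widths the widest members over 2 kb from a TSS were at Tor1b (1600 bp in HE, 1800 bp in MAC), Pik3cb (1600 and 1700 bp), B4galt6 (1500 and 1500 bp), Kdm6b (3400 and 1400 bp), Mcf2l (1700 and 1400 bp) and Plcl2 (1600 and 1400 bp), followed by Prag1, Kcnip1, Gsg1l and Hivep2, each with 1300 bp in MAC. Those at Tor1b and Pik3cb held AP-1 matches. An HP interval covered the centre of the Pik3cb member, and the nearest came within 0.111 kb of the centre at Hivep2, 0.376 kb at Kdm6b and 0.408 kb at Mcf2l. At the 6 other loci it was from 4.57 kb (Tor1b) to 103 kb (Gsg1l) away.

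The promoters of genes with a member over 2 kb away were mostly listed in all stages. Of 1580 such genes, 80.9% had a promoter site in HE and 66.6% in MAC, with 71.8% in MES, 75.7% in HB and 64.7% in HP. Each share was above that of all protein-coding genes given with the marker genes. In 877 of the genes (55.5%) the promoter was listed in all 5 stages, against 42.3% of all genes. That share was 47.9% of genes with an HE only region, 52.8% with a MAC only region and 57.8% with an HE, HP and MAC region. In 31 (1.96%) the promoter was listed in HE and MAC only, against 0.719% of all genes. That pattern was in 1.09% of genes with an HE only region, 1.25% with a MAC only region and 2.19% with an HE, HP and MAC region. In 310 (19.6%) it was listed in HE or MAC and not in HP, against 14% of all genes, 20.3% of genes with an HE only region and 17.8% of genes with a MAC only region. Genes with a MAC only region had promoter sites in 74.6% for HE, 60.9% for HP and 62.8% for MAC, and genes near an HE only region in 58.1% for HP and 56.0% for MAC, so a higher share of HP promoters than of all genes was also found beside regions of a single stage.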

How the data were processed

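DNaseI-seq was measured in 5 sorted populations of mouse ES cell differentiation, with 1 deposited list each. By the study's methods, CutAdapt trimmed the reads, Bowtie placed them on mm10, Picard took out duplicates and DFilter listed sites (bins of 100 bp, kernel size 50). HOMER is named in the submitters' processing notes, and versions were not given in the sources used here. What the authors deposited is the start and the end of each site in bp, and no other value. No filter was applied to the sites. Windows, merging, shares and exact motif matches were computed in Python 3.11.15 with numpy 2.4.6 and pysam 0.24.0, with RefSeq annotation and sequence of GRCm38.p6. The steps were tested on simulated data. The 4 mitochondrial regions were left out of annotation. Positions in introns or exons were read from all annotated transcripts, and distances from curated protein-coding TSS.

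Printed sequences were free of exons, over 2 kb from a TSS and not on chromosome 18. The members and lists were chosen with earlier results of these data known. Genes named were those of 8 lists (up to 12 per list), the 12 genes with most members, the 10 widest members, 1 printed sequence per list, the sorting markers and members just inside the overlap rule. The second set of sequences, Runx1, Spi1, Cdh5, Vcl, Mef2c, Nrp1, Pecam1 and promoter genes were named after their values were seen. Alternatives were other overlaps, windows, widths, TSS sets, distances and motif spans.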

Additional observations from a re-analysis of the deposited data

How the results depend on the processing

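When each list was cut at its median width, which also removes narrow MES, HB and HP sites, there were 1067 members and 863 genes, with 22.9% at promoters, 12.8% CpG-rich, 64.4% within 10 kb of an HP site, ETS at 22.8% and median widths of 1400 bp in HE and 800 bp in MAC. When every list was shortened to as many sites as HP has, keeping the widest, there were 448 members and 366 genes, 14.3% at promoters, 6.03% CpG-rich, AP-1 at 31.5%, PU.1 at 17.4%, ETS at 23.7% and widths of 1300 and 800 bp. With windows of 300 bp, 10.4% were at promoters, 4.06% CpG-rich and 32.9% near HP, and with merging at 250 bp 3.51% were CpG-rich and 32.4% near HP. Deposited intervals gave AP-1 at 32.7% and PU.1 at 13.2%. Without regions that a deposited MES, HB or HP interval overlapped, 7.54% were at promoters and 1.68% CpG-rich. Leaving out 1 list was chosen after seeing the data: without MES, 3.14% were CpG-rich, without HB 10.4% were at promoters and 3.71% CpG-rich, and without HP there were 3436 members, with an HE width of 1100 bp, 51.4% near HP and AP-1 at 38.9%, a set that by its construction takes in regions with an HP site. All annotated TSS put 16.9% at promoters and a reach of 1 kb put 6.43%, the stricter CpG definition (GC at least 0.55, ratio at least 0.65) gave 1.5%, a reach of 5 kb left 15.9% near HP, and every gene within 50 kb gave 2912 genes. In the central 200 bp AP-1, PU.1 and ETS were in 22.8%, 8.92% and 12.8%, and reversed strings in 10.6%, 4.39% and 4.21%. The causes of the other moves were not tested. The other 82 values of these results stayed within their interval or within 1.5 times. For RUNX, GATA, SOX, C/EBP and TEAD, 14 further values moved and 56 stayed. The central 200 bp and the reversed string moved all of these strings. Cut at the median width, C/EBP was in 1.58%. With lists of equal length GATA was in 27.6% and SOX in 11.2%, and without HP GATA was in 27.2%. The causes of these moves were not tested either. The files give no depth, which limits what absence from a list means. No paired analysis was possible because each stage has 1 list.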
